A study of Mus musculus with 4 samples.

Results

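Saa3, Hp, Lrg1 and Lcn2, which encode secreted acute-phase proteins, Slpi and Cst3, which encode secreted protease inhibitors, and Prtn3 and Napsa, which encode proteases, were described in mouse peritoneal macrophages. They are 8 of the 31253 genes in the matrix and were chosen by symbol, with their levels in these cells already known, so every value below is a description and none was tested. The data are single-cell RNA counts of viable peritoneal cells sorted for F4/80, the macrophage surface protein encoded by Adgre1. The labels give 4 groups with 1 sample in each, from animals aged 24 weeks: C57BL/6 wild-type mice on a normal diet, Apoe-/- mice on a normal diet, Apoe-/- mice on a high-fat diet (HFD), and HFD-fed Apoe-/- mice treated with anti-CVI-mAb, an antibody that the series title ties to collagen VI. How many animals went into a sample is not stated. Apoe-/- mice lack apolipoprotein E, which clears lipoprotein particles from blood. The HFD-fed mice were males of C57BL/6 background that ate food with 21% fat and 0.15% cholesterol for 20 weeks from an age of 4 weeks and were back on a normal diet before treatment began. In week 21 they were injected into the peritoneum with the antibody (3 mg in 200 µL) or with PBS alone, and both normal-diet groups also had PBS. All 4 samples were deposited as 1 matrix in which barcodes end in a suffix from 1 to 4, taken here as libraries 1 to 4. No label and no header says which suffix is which sample, so no genotype, diet or antibody comparison was made and every value belongs to a library of unknown group. Apoe itself stood at 30.1, 863, 738 and 29778 CPM (defined below) in macrophages of libraries 1 to 4, highest in library 4. These values were not used to assign a library to a group.

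Acute-phase proteins are secreted in greater amounts during inflammation, mostly by the liver, where interleukin 6 and the transcription factors STAT3, C/EBP and NF-kB drive their genes. Saa3 is a serum amyloid A gene that is active mainly outside the liver, macrophages included. Protease inhibitors such as SLPI, which blocks neutrophil serine proteases, and cystatin C, which blocks cysteine cathepsins, are released by macrophages and epithelia and limit damage by the enzymes of immune cells. The peritoneal cavity holds large resident macrophages, marked by the phosphatidylserine receptor gene Timd4, and small macrophages, some of which carry the folate receptor gene Folr2 or the monocyte chemokine receptor gene Ccr2.

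Macrophages were barcodes with at least 2 UMIs (counted RNA molecules) of Adgre1 and no UMI of Cd79a or Cd3e, the genes of B and T cell receptor chains, kept only where a barcode had 500 or more genes detected and no more than 10% of its UMIs from mitochondrial genes. They numbered 1538, 4218, 4334 and 5017 in libraries 1 to 4, with median depths of 8218.5, 12506.5, 13951 and 12903 UMIs. B cells (at least 3 Cd79a UMIs, no Adgre1 UMI) numbered 586, 576, 311 and 281, with median depths of 9508.5, 7076.5, 4859 and 6466, and served as the background of free RNA, the RNA that leaks from one cell into the droplets of others. T cells (at least 2 Cd3e UMIs, no Adgre1 UMI) were few, at 71, 55, 79 and 80. Levels are in CPM, the gene's UMIs per 1000000 UMIs of a cell set, and a 3' UMI count does not scale with transcript length. Intervals in parentheses are exact 95% intervals (Poisson for levels, Clopper-Pearson for shares and ratios) and cover counting error only.

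Library 1 stood apart from the others. It kept 3611 of its 6254 barcodes after these filters, against 6023 of 6765, 5311 of 6454 and 5919 of 7338 in libraries 2 to 4, and 1936 of its barcodes exceeded the mitochondrial limit, against 495, 296 and 495. Its macrophages were 42.6% of its kept barcodes, against 70.0 to 84.8% in the others. Their makeup also differed: cells with at least 3 Timd4 UMIs were 7.93, 12.8, 47.7 and 52.9% of macrophages in libraries 1 to 4, cells with at least 2 Folr2 UMIs 55.5, 22.6, 7.41 and 6.04%, and cells with at least 3 Ccr2 UMIs 10.99, 19.0, 3.32 and 5.68%. These sets overlap: 82 of 169, 165 of 801, 26 of 144 and 44 of 285 Ccr2 cells in libraries 1 to 4 were also Folr2 cells, and 47 of 122 Timd4 cells of library 1 were Folr2 cells. All 8 macrophage markers on the list reached 20 CPM in at least 1 library (Fcgr1 was at 14.9 CPM in library 1), and their summed level was 42850, 52387, 61529 and 70416 CPM. Marker sums of other cell types in the gated macrophages were 233, 30.7, 14.3 and 11.6 CPM for B cells, 210, 134, 144 and 126 CPM for neutrophils, 32.0, 13.0, 14.4 and 18.0 CPM for dendritic cells and at most 1.91 CPM for T and NK cells. Across libraries, 52 barcode sequences occurred in more than 1 library, and 54 macrophages carried such a barcode.

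Promoters are shown for the pair of members with the highest median correlation over single cells (Saa3 and Lrg1), for the gene that differed most between libraries (Slpi) and for the steadiest gene (Cst3). Each window spans 250 bases before and 50 after the RefSeq start on GRCm38.p6, 5′ to 3′ on the gene's own strand, which is the minus strand for all 4 genes. Capitals mark matches of TTNNGNAA, a C/EBP-type motif, in Saa3 and Slpi, of TATAAA, the TATA motif, in Lrg1 and of GGGCGG, the GC box, in Cst3.
Saa3: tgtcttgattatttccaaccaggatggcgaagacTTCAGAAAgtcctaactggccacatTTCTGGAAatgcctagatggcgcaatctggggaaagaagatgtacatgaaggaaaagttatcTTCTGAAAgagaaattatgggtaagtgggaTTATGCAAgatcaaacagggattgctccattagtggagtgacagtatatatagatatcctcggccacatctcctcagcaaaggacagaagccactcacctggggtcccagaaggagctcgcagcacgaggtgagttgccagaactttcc
Lrg1: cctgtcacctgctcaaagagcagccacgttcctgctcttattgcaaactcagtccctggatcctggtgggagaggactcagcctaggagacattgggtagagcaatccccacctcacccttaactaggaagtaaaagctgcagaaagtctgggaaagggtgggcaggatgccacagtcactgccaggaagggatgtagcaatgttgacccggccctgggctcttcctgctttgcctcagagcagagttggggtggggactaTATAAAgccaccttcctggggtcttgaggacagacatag
Slpi: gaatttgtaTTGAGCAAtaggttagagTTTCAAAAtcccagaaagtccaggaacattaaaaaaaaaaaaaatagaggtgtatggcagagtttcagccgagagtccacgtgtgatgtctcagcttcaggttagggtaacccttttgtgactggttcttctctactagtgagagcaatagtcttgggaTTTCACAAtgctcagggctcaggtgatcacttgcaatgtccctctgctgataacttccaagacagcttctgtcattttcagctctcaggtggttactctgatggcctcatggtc
Cst3: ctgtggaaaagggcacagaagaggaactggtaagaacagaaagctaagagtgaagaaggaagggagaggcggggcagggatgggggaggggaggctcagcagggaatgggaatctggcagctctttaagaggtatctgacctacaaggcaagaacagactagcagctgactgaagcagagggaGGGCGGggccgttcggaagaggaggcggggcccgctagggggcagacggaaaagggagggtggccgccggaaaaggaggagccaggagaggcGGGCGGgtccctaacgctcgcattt
The windows lie at chr7:46715627-46715926 (Saa3), chr17:56121897-56122196 (Lrg1), chr2:164356458-164356757 (Slpi) and chr2:148875463-148875762 (Cst3). Saa3 held 4 matches of TTNNGNAA, at positions -216, -191, -129 and -99 from the start, and Slpi held 3, at -241, -223 and -64, the last 2 on the opposite strand. On both strands, 40.7% of 32851 promoter windows of this length hold at least 1 match of TTNNGNAA, 13.6% hold TATAAA and 35.7% hold GGGCGG. In Lrg1, TATAAA lay at position 12, after the RefSeq start. Cst3 had the GC box at -67 and 26, with 60.3% G or C and 13 CpG dinucleotides, where the median window has 52.7% and 7. The Saa3, Lrg1 and Slpi windows had 5, 2 and 2 CpG dinucleotides. Of the other members, the Prtn3 window held GAGGAA, a PU.1-type motif, at -95 (28.3% of windows hold it) and the Lcn2 window held TTNNGNAA at -216, GGGCGG at -94 and GAGGAA at -20, all on the opposite strand. GAGGAA also occurred at -230 in Cst3. TGANTCA (AP-1, in 7.81% of windows) and an NF-kB motif (in 4.51%) had no match in the 6 windows found, and no match overlapped another. A match is a run of letters and not a measured binding site.

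Saa3 was the acute-phase gene with the most UMIs, and it was found in nearly every macrophage. Saa3 (7:46711998-46715700, minus strand, GENCODE M21 on GRCm38, a protein-coding gene of up to 4 exons) encodes a small apolipoprotein of high-density lipoprotein. Its level in macrophages was 16659 CPM (16589 to 16728) in library 1, 15347 (15314 to 15380) in library 2, 18567 (18533 to 18601) in library 3 and 10293 (10269 to 10318) in library 4. Library 4 was the lowest and library 3 the highest, 1.804-fold apart. Saa3 made up 1.03 to 1.86% of all macrophage UMIs, with a median of 99, 141, 204 and 94 UMIs per cell. When 3000 UMIs were drawn from every cell, which left out 85, 55, 24 and 29 shallower macrophages, 98.97, 98.97, 99.7 and 98.0% of macrophages had a Saa3 UMI (unthinned, at least 99.8% in each library). In B cells, thinned the same way with 11, 23, 47 and 24 left out, the share was 77.6, 77.0, 83.3 and 69.7%. The B cell level was 496, 553, 737 and 383 CPM, 2.98 to 3.97% of the macrophage level. The same share was smaller or similar for the macrophage genes C1qa, C1qb, Lyz2 and Csf1r: C1qa stood at 2.08 to 2.87%, C1qb at 2.39 to 3.26%, Lyz2 at 2.25 to 2.92% and Csf1r at 2.67 to 3.65%, while Cd68 stood at 3.63 to 10.4%. Single B cells held 321 of the 2673 Saa3 UMIs of that set in library 2 and 160 of 1338 in library 3. The Saa3 shares of these libraries include those cells. Saa3 counts spread far wider over cells than random sampling gives, with a ratio of variance to mean of 26.2 to 35.5 in thinned cells, where sampling alone gives about 1.

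The other serum amyloid A genes were almost absent. Saa1 had 0.38, 0.13, 0.62 and 0.10 CPM in macrophages of libraries 1 to 4, Saa2 had 0 UMIs in libraries 1 and 2 and 0.24 and 0.044 CPM in libraries 3 and 4, and Saa4 had 1 UMI, in library 3. Saa1 and Saa2 are the liver forms that dominate in blood. Of the 2593 possible 31-base stretches of Saa3 transcripts, 193 (7.44%) occur in transcripts of another gene. Of these, 28 occur in Saa1, 11 in Saa2 and 0 in Saa4, and most are shared with genes not named here. Reads that lie within a shared stretch cannot be told apart from those of the gene that shares it. The share of stretches found in another gene was 0.25% for Hp, 0.56% for Napsa and 0 for the remaining 5 genes.

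Hp and Lrg1 were moderate, and each differed between libraries. Hp (8:109575128-109579172, minus strand) encodes haptoglobin, which captures haemoglobin freed from red cells. Its macrophage level was 128 CPM (122 to 134) in library 1, 338 (333 to 343) in library 2, 314 (310 to 318) in library 3 and 149 (146 to 152) in library 4. Libraries 2 and 3 were high and libraries 1 and 4 low, with the extremes 2.65-fold apart. Hp in B cells was 3.73, 7.44, 11.02 and 3.55 CPM, and the thinned share of macrophages with a Hp UMI was 27.0, 53.6, 49.98 and 30.1% against 1.39, 1.99, 4.17 and 0.78% of B cells. Without thinning the macrophage share was 45.8, 84.1, 83.4 and 63.1%. Lrg1 (17:56119678-56122001, minus strand) encodes leucine-rich alpha-2-glycoprotein, a secreted modulator of TGF-beta signalling. It stood at 340 CPM (331 to 351), 232 (228 to 236), 471 (465 to 476) and 163 (160 to 166), so that library 3 was highest and library 4 lowest, 2.89-fold apart. The order of libraries differed between these genes: 2, 3, 4, 1 for Hp and 3, 1, 2, 4 for Lrg1, the same order as for Saa3. The thinned share of macrophages with an Lrg1 UMI was 55.5, 42.7, 63.9 and 34.5%, against 2.61, 1.63, 8.71 and 1.56% of B cells. Unthinned, it was 76.9, 74.0, 88.3 and 71.2%.

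Lcn2, by contrast, was found in few cells. It lies at 2:32384633-32388252 on the minus strand and encodes lipocalin 2, which binds bacterial iron carriers. Its level was 5.96 CPM (4.72 to 7.42; 79 UMIs), 5.37 (4.77 to 6.01; 297 UMIs), 11.1 (10.3 to 11.99; 701 UMIs) and 21.7 (20.6 to 22.9; 1464 UMIs) in macrophages of libraries 1 to 4. Libraries 1 and 2 did not differ beyond their intervals, and libraries 3 and 4 were higher. The thinned share of macrophages with a UMI was 0.89, 0.91, 2.95 and 3.49%, and 2.02, 3.18, 7.68 and 8.69% without thinning. In thinned B cells it was 0 of 575, 0 of 553 and 0 of 264 cells, which allow shares of up to 0.64, 0.66 and 1.39%, and 0.39% of 257 cells. Whole B cells held 0, 0, 1 and 3 Lcn2 UMIs and T cells held 0 in every library, where 3 UMIs would be 6.99, 9.28, 8.27 and 5.81 CPM.

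Most of the remaining acute-phase genes were under 20 CPM in macrophages, as were most genes in the matrix. Of 22 listed, 3 reached 20 CPM in macrophages of any library, a level reached by 6300 of all 31253 genes. Cp, the gene of the copper-carrying ferroxidase ceruloplasmin, had 208, 37.5, 62.4 and 62.8 CPM in libraries 1 to 4. C3, the central complement component, had 192, 229, 135 and 132 CPM, and Fgl2, a fibrinogen-like protein, had 10.6, 20.2, 8.37 and 8.84 CPM. Hepatocyte markers summed to at most 1.05 CPM, and Ptx3, a pentraxin, had no UMI. Of 14 receptors that the members or their relatives are known to act on, 11 reached 20 CPM. Cd163, the receptor for haptoglobin bound to haemoglobin, was at 113 CPM in library 1 and 9.34, 6.39 and 5.13 in libraries 2 to 4. Serum amyloid A acts on Fpr2, a formyl peptide receptor, which was at 45.4, 57.9, 35.3 and 40.3 CPM, and on the Toll-like receptors Tlr2 (54.4, 33.2, 26.0 and 37.2 CPM) and Tlr4 (55.5, 34.3, 27.4 and 23.8 CPM). Fpr1, a second formyl peptide receptor, lay between 43.3 and 64.4 CPM and P2rx7, an ATP receptor, between 23.4 and 55.8 CPM. Among 18 inducers of acute-phase genes, 11 reached that level. The lists were chosen with earlier results of these data known, so nothing is read from these counts. Il6ra, the interleukin 6 receptor, was at 400.4, 156, 144 and 101 CPM and Cebpb, which encodes C/EBP-beta, at 1016, 1487, 1285 and 1085 CPM, while Il6 itself was at 3.39, 1.79, 1.27 and 3.77 CPM. Il6st, the shared signalling chain of that receptor, was at 83.9, 35.1, 29.8 and 27.8 CPM, its effector Stat3 at 175, 99.3, 92.3 and 72.4 CPM and Cebpa at 197, 113, 88.7 and 66.7 CPM, all highest in library 1. Socs3, a feedback inhibitor of that pathway, was at 61.4, 73.2, 89.5 and 50.02 CPM, highest in library 3. In B cells Il6st was at 55.8, 40.5, 55.7 and 31.5 CPM and Stat3 at 125, 91.4, 83.8 and 79.7 CPM. By the rule of size given below, neither was higher in macrophages than in B cells, while Il6ra, Cebpb, Cebpa and Socs3 were.

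Slpi was among the genes that differed most between libraries. Slpi (2:164354070-164389095, minus strand) encodes secretory leukocyte protease inhibitor, which blocks elastase and cathepsin G. Its macrophage level was 949 CPM (932 to 965) in library 1, 7275 (7252 to 7297) in library 2, 12994 (12966 to 13022) in library 3 and 13880 (13852 to 13908) in library 4. Library 1 was 14.6-fold below library 4, a span at percentile 99.6 of the 6300 genes that reached 20 CPM in their highest library. The median macrophage held 1, 52, 81 and 78 Slpi UMIs, and the thinned share of macrophages with a UMI was 46.7% (44.1 to 49.3) in library 1 against 94.4, 93.4 and 94.4% in libraries 2 to 4. Unthinned shares were 59.5, 98.8, 99.3 and 99.3%. Slpi was unevenly shared among cells: the 10% of macrophages with most Slpi held 69.7% of its UMIs in library 1 and 42.3, 46.1 and 45.7% in the others, and single cells reached 424, 2362, 2734 and 2463 UMIs. In B cells library 1 was also lowest, with 16.1, 156, 411 and 351 CPM and thinned shares of 5.39, 38.9, 59.1 and 59.5%. Their level was higher in library 3 than in library 4, the reverse of macrophages. A single B cell of library 3 held 110 of the 746 Slpi UMIs of that set. As a share of the macrophage level, the B cell level was 1.70, 2.14, 3.16 and 2.53%, against 2.25, 2.32, 2.92 and 2.33% for Lyz2.

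**Figure D1:**
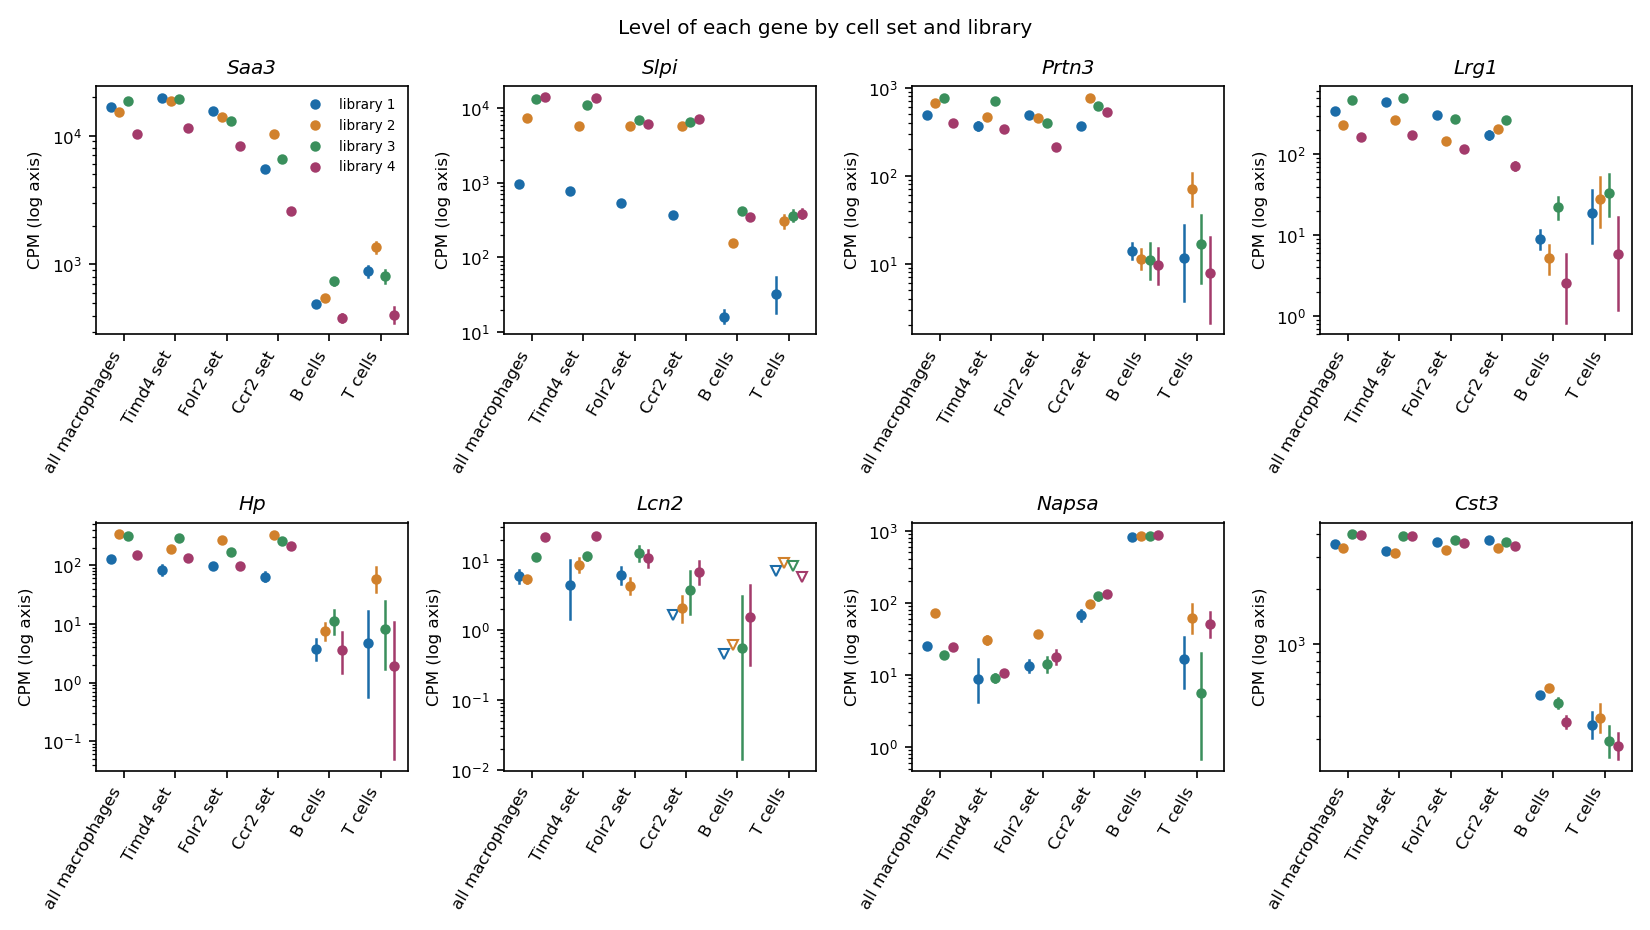
Level of each of the 8 genes (CPM, log axis) in all macrophages, the Timd4, Folr2 and Ccr2 sets, B cells and T cells; each colour is a library, lines are exact 95% counting intervals and open triangles mark the level of 3 UMIs where none was counted. Slpi lies lowest in library 1 in every set, Cst3 is nearly level over libraries in the macrophage sets, and Napsa is highest in B cells.

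Cst3 was the steadiest of the 8 genes. Cst3 (2:148871722-148875692, minus strand) encodes cystatin C. It stood at 3552 CPM (3520 to 3584), 3340 (3325 to 3355), 4004 (3988 to 4020) and 3953 (3938 to 3968) in macrophages of libraries 1 to 4, a span of 1.199-fold, at percentile 8.33 of all genes. At least 99.8% of macrophages had a Cst3 UMI in every library, and the ratio of variance to mean was 1.78 to 2.12 in thinned cells, far below that of Saa3. In B cells Cst3 was at 525, 570, 472 and 373 CPM, which is 14.8, 17.1, 11.8 and 9.44% of the macrophage level. These shares lie above those of C1qa, C1qb, Lyz2 and Csf1r, at most 3.65% in any library, and above those of Cd68 (10.4, 6.9997, 3.63 and 6.64%). T cells had 359, 393, 292 and 275 CPM.

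Most other protease inhibitors were under 20 CPM in the same cells, as were most genes in the matrix. Of 28 in the matrix, 7 reached 20 CPM in a library and 5 had no UMI. Of all 31253 genes, 6300 reached 20 CPM in macrophages of a library, and nothing is read from the count of inhibitors. Wfdc17, which has a whey acidic protein domain like SLPI, was at 3894, 4064, 6143 and 5389 CPM in libraries 1 to 4. Timp2 came next among the inhibitors listed, at 1698, 1196, 1654 and 1703 CPM. Serpinb2, an inhibitor of urokinase, was at 64.4, 116, 418 and 448 CPM, and Serpinb1a, an inhibitor of neutrophil serine proteases, at 31.8, 79.9, 200 and 224 CPM. Both had the order of libraries seen for Slpi in macrophages, with library 1 lowest and library 4 highest. In B cells Serpinb2 was at 1.49, 3.72, 13.8 and 10.7 CPM. Serpinb1a was at 51.9, 88.1, 136 and 104 CPM there, above its macrophage level in libraries 1 and 2. Cstb, the gene of the intracellular cystatin B, was at 106 to 116 CPM, and Serpinb6a and Serpinb8 lay between 93.0 and 278 CPM.

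Prtn3 was found in most macrophages, in which 6 other genes of the azurophil granule list were each below 1 CPM. Prtn3 (10:79874476-79883174, plus strand) encodes proteinase 3, a serine protease of neutrophil azurophil granules. Its macrophage level was 484 CPM (472 to 496) in library 1, 666 (659 to 673) in library 2, 755 (749 to 762) in library 3 and 395 (390 to 400) in library 4. Library 3 was highest and library 4 lowest, 1.91-fold apart. The thinned share of macrophages with a Prtn3 UMI was 68.5, 75.5, 73.5 and 57.9%, against 4.70, 3.62, 2.65 and 4.28% of B cells, whose level was 14.0, 11.4, 11.02 and 9.65 CPM. Without thinning, the macrophage share was 82.8, 92.4, 91.5 and 84.1%. The azurophil granule genes that accompany Prtn3 in neutrophil precursors were at or near 0: Elane, the gene of neutrophil elastase, which lies 3138 bases from Prtn3, was at 0.60, 0.70, 0.75 and 0.27 CPM, and Mpo, the gene of myeloperoxidase, had no UMI. Ctsg, the gene of cathepsin G, was at 0.15, 0.51, 0.24 and 0.28 CPM. Of the 9 neutrophil markers, 3 reached 20 CPM in at least 1 library, as did 6300 of all 31253 genes. Csf3r, the receptor of granulocyte colony-stimulating factor, was at 138, 89.4, 78.0 and 91.7 CPM, S100a8, a calcium-binding protein abundant in neutrophils, at 7.39, 30.2, 31.7 and 15.96 CPM and Mmp9, a matrix metalloprotease, at 65.0, 10.01, 12.02 and 18.6 CPM. S100a9, the partner of S100a8, had 3.56 CPM in library 2, 17.4 in library 3 and no UMI in libraries 1 and 4, and Retnlg was at most 4.83 CPM. Ngp had no UMI, and Camp, Ly6g and Cxcr2 were at most 0.24 CPM. The part of neutrophil RNA in the Prtn3 level was not tested. Of 7 specific granule genes, Mmp9 and Cd177, a neutrophil surface protein that binds proteinase 3, reached 20 CPM in at least 1 library, with Cd177 at 31.7, 31.5, 13.5 and 18.8 CPM.

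Napsa was a gene of B cells more than of macrophages. Napsa (7:44572380-44586862, plus strand) encodes napsin A, an aspartic protease known from lung and kidney. It stood at 813 CPM (792 to 835), 852 (826 to 879), 830 (789 to 873) and 860 (820 to 902) in B cells of libraries 1 to 4, which is level within the counting intervals, and at 25.04 (22.4 to 27.9), 71.8 (69.6 to 74.1), 18.6 (17.6 to 19.7) and 24.4 (23.3 to 25.7) CPM in macrophages. Library 2 had the highest macrophage level, 3.86-fold above library 3. T cells had 16.3 CPM (6.56 to 33.6), 61.8 (37.8 to 95.5), 5.52 (0.67 to 19.9) and 50.3 (32.9 to 73.7), and the macrophage level lay inside these intervals in libraries 1 to 3 and below them in library 4. B cells therefore gave no free-RNA background for Napsa. In macrophages Napsa kept 3.08, 8.42, 2.24 and 2.84% of its B cell level. The B cell genes Cd79b (0.93, 0.30, 0.10 and 0.11%), Ighm (0.95, 0.16, 0.10 and 0.077%) and Ms4a1 (0.49, 0.081, 0.033 and 0.035%) kept less, in every library. The thinned share of macrophages with a Napsa UMI was 5.64, 17.1, 4.73 and 5.65%, and 11.8, 43.7, 15.4 and 18.1% without thinning. In thinned B cells it was 87.1, 88.6, 83.7 and 87.9%, and in thinned T cells 1.52, 3.70, 2.82 and 5.71%. Among related proteases, the aspartic cathepsin Ctsd stood at 1965, 1288, 1781 and 1414 CPM and the cysteine cathepsin Ctsb, a target of cystatin C, at 3548, 1690, 1392 and 1097 CPM. Of 12 such proteases, 9 reached 20 CPM in macrophages of a library, as did 6300 of all 31253 genes, and nothing is read from this count. Ctsa, Ctsc, Ctsh and Ctsl lay between 163 and 523 CPM.

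For the macrophage and B cell comparison, a gene passed the rule of size when the higher set reached 20 CPM and the log2 ratio was 1 or more (or -1 or less), with a common sign, in every library. Saa3, Slpi, Prtn3, Lrg1, Hp and Cst3 were higher in macrophages by this rule and Napsa was lower. Lcn2 was under 20 CPM in 3 libraries and was not judged. Of the 5368 genes that reached 20 CPM, 16% were higher and 9.58% lower in macrophages. The members were chosen for their expression in macrophages, so nothing is read from their count. The median log2 ratio of all genes judged lay between -0.06 and 0.07. Log2 ratios were 4.65 to 5.07 for Saa3, 4.98 to 5.87 for Slpi, 5.10 to 6.06 for Prtn3, 4.40 to 5.86 for Lrg1, 4.79 to 5.48 for Hp and 2.55 to 3.40 for Cst3, and -5.02, -3.57, -5.48 and -5.14 for Napsa. Of the fixed lists, 6 of 7 judged protease inhibitors were higher in macrophages, as were 6 of 9 aspartic and cysteine proteases, 8 of 11 receptors and 6 of 11 inducers. Median log2 ratios over the judged genes of these lists were 3.84 to 4.38 for inhibitors, 2.40 to 2.96 for proteases, 2.22 to 3.00 for receptors, of which 1 was lower, and 1.01 to 1.54 for inducers. In the acute-phase list, 2 of 4 were higher (Cp and C3) and 2 lower (Serpina3g and Fgl2).

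Differences between libraries covered 5 of the 8 genes: Slpi (14.6-fold), Lcn2 (4.04), Napsa (3.86), Lrg1 (2.89) and Hp (2.65) spanned at least 2-fold from the lowest to the highest library, and Prtn3 (1.91), Saa3 (1.804) and Cst3 (1.199) did not. Of the 6300 genes that reached 20 CPM in their highest library, 30.6% spanned as much, and the median span was 1.69-fold. Without library 1 the share of genes was 4.15%, and 4 of the members spanned 2-fold: Lcn2 4.04, Napsa 3.86, Lrg1 2.89 and Hp 2.27. Slpi then spanned 1.91-fold. The members were chosen with their levels in these cells known, so nothing is read from their counts against the shares of all genes. Without library 2 Napsa spanned 1.35-fold, and without library 4 Lcn2 spanned 2.07-fold but stayed below 20 CPM. The span of Slpi held inside each set of macrophages, at 17.5-fold in Timd4 cells, 13.0 in Folr2 cells, 19.2 in Ccr2 cells and 8.24 in cells under all 3 limits, and library 1 was lowest in each. Because each library is 1 sample, a difference between libraries cannot be told apart from one of preparation, depth or cell makeup.

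Macrophages with at least 3 Timd4 UMIs (122, 541, 2069 and 2655 cells) had less Napsa than the other macrophages of their library, and the remaining 7 genes differed by less than 2-fold in every library. Napsa was at 8.85 CPM (4.24 to 16.3), 30.7 (27.0 to 34.7), 9.01 (8.004 to 10.1) and 10.5 (9.54 to 11.6) in these cells, and its log2 ratio was -1.52 (-2.66 to -0.69) in library 1, -1.36 (-1.55 to -1.18) in library 2, -1.68 (-1.87 to -1.48) in library 3 and -2.02 (-2.19 to -1.86) in library 4. Lcn2 was under the level needed for the rule of size, and Napsa was the member past it. Of 4691 genes judged, 0.0426% were higher (Cdkn2a and Marco) and 0.0853% lower (Ccr2, Chil3, Coro1a and Napsa). Saa3 and Lrg1 were slightly higher in Timd4 cells of all 4 libraries, with log2 ratios of 0.25, 0.32, 0.08 and 0.37 for Saa3 and 0.42, 0.26, 0.18 and 0.24 for Lrg1. Hp, Prtn3, Slpi and Cst3 were lower in all 4: the ratios were -0.66, -0.95, -0.25 and -0.41 for Hp, -0.42, -0.58, -0.18 and -0.50 for Prtn3 and -0.30, -0.38, -0.46 and -0.05 for Slpi. Those of Cst3 lay between -0.14 and -0.03. The median ratio of all genes was between -0.02 and 0.06. In Timd4 cells the dendritic cell markers summed to 83.2, 20.2, 15.5 and 16.9 CPM and the B cell markers to 280, 35.007, 14.1 and 10.8 CPM. Lcn2 had no common sign (-0.33, 0.87, 0.07 and 0.14), and 0 members of the 7 gene lists described above passed the rule. The count of 1 became 0 when cells with a UMI of Flt3, Zbtb46, Cd209a or Xcr1, dendritic cell genes, were left out, where 6 in place of 7 members reached the level needed and Napsa had a median ratio of -1.65. It was also 0 when 1 Timd4 UMI or more was set against none (median -1.36).

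**Figure D2:**
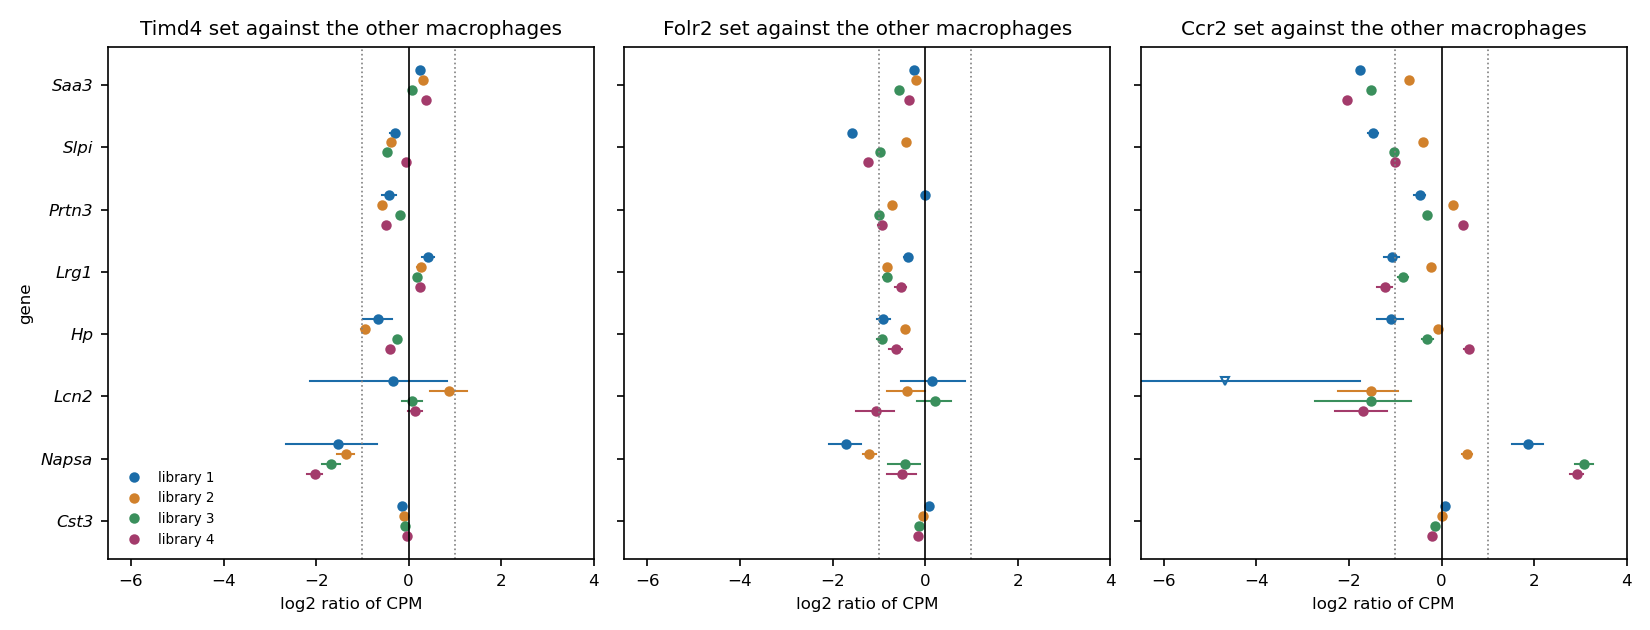
Log2 ratio of CPM between macrophages past each limit (Timd4, Folr2 or Ccr2) and the remaining macrophages, by gene and library; lines are exact 95% counting intervals, dotted lines mark 2-fold, and the open triangle is Lcn2 in library 1, with 0 UMIs in its Ccr2 cells. Napsa lies below -1 in all 4 libraries of the Timd4 panel and above 0 in all 4 of the Ccr2 panel, where Saa3 lies below 0 in each.

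Macrophages with at least 2 Folr2 UMIs (854, 952, 321 and 303 cells) had less Slpi, Saa3, Lrg1, Hp and Napsa than the others in each library, although none of the 8 genes passed the rule. Of 4854 genes judged, 0.0824% were higher (Cbr2, Lgals1, Lyve1 and Maf) and 0.0618% lower (Garnl3, Ltbp1 and Ptgis). Slpi stood at 534, 5809, 6931 and 6155 CPM in Folr2 cells, and its log2 ratio was -1.57 (-1.63 to -1.52) in library 1, -0.42 (-0.43 to -0.41) in library 2, -0.97 (-0.98 to -0.95) in library 3 and -1.24 (-1.25 to -1.22) in library 4. Libraries 2 and 3 missed the limit. Hp had -0.90, -0.43, -0.94 and -0.64, Lrg1 -0.37, -0.83, -0.82 and -0.53 and Saa3 -0.24, -0.20, -0.55 and -0.34. Prtn3 was level in library 1 at 0.00 (-0.07 to 0.07) and lower in libraries 2 to 4, at -0.72, -1.01 and -0.93. Napsa, under 20 CPM in both sets of library 3, had -1.72, -1.20, -0.44 and -0.50. The ratios of Cst3 lay between -0.16 and 0.08 and those of all genes had medians of 0.05, 0.11, 0.16 and 0.16. Folr2 cells were deeper than all macrophages of their library, at medians of 9124.5, 13885, 15178 and 15424 UMIs, and with cells thinned to 3000 UMIs 0 of the 8 passed as well.

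In macrophages with at least 3 Ccr2 UMIs (169, 801, 144 and 285 cells) Saa3, Slpi and Lrg1 were lower and Napsa was higher in all 4 libraries, but none of the 8 genes passed the rule. Saa3 stood at 5457 CPM (5351 to 5565), 10259 (10199 to 10319), 6565 (6463 to 6669) and 2611 (2562 to 2660), for log2 ratios of -1.76, -0.69, -1.54 and -2.05. Napsa stood at 66.6 CPM (55.4 to 79.5), 96.1 (90.4 to 102), 122 (109 to 137) and 131 (120 to 142), for ratios of 1.87, 0.55, 3.08 and 2.92. Library 2 had the smallest difference for both genes and also the most Ccr2 cells. Without library 2 both passed the rule, at 1.37% of genes called. Of 4881 genes judged over all 4 libraries, 0.102% were higher (Emb, Olfm1, Plbd1, Retnla and Sirpb1c) and 0.246% lower, among them Timd4, Marco, Vsig4 and Cp. Cp was the only member of the 7 gene lists past the rule. Slpi had ratios of -1.48, -0.41, -1.03 and -0.996 and Lrg1 -1.08, -0.22, -0.83 and -1.23. Prtn3 and Hp had no common sign, with -0.47, 0.24, -0.31 and 0.46 for Prtn3 and -1.10, -0.07, -0.31 and 0.58 for Hp. Lcn2 had 0, 23, 9 and 29 UMIs in Ccr2 cells, and its ratios in libraries 2 to 4 were -1.53, -1.52 and -1.69. Dendritic cell markers summed to 70.4, 16.3, 72.4 and 88.6 CPM in Ccr2 cells against 32.0, 13.0, 14.4 and 18.0 CPM in all macrophages, and B cell markers to 235, 34.4, 30.98 and 26.7 CPM. Without cells with a UMI of one of the 4 dendritic cell genes above, the median ratio of Napsa in the Ccr2 split was 2.17, against 2.39 with them.

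Cells under all 3 limits (523, 2243, 1971 and 1973 macrophages) had the highest Slpi level of any set in each library, at 2004, 8575, 16513 and 15798 CPM. They were also the shallowest of these 4 sets, at medians of 6380, 12017, 13243 and 11718 UMIs. Hp was highest in these cells in libraries 1 to 3, at 215, 395 and 360 CPM, and in Ccr2 cells in library 4, at 216 CPM. Barcodes outside every gate had 5912, 11387, 11808 and 6836 CPM of Saa3 and 270, 4194, 7181 and 7151 CPM of Slpi, below the macrophages of their library. Barcodes under 500 genes had 11385, 11468, 6452 and 4652 CPM of Saa3, and those above the mitochondrial limit had 11206, 13111, 11555 and 7499 CPM.

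**Figure D3:**
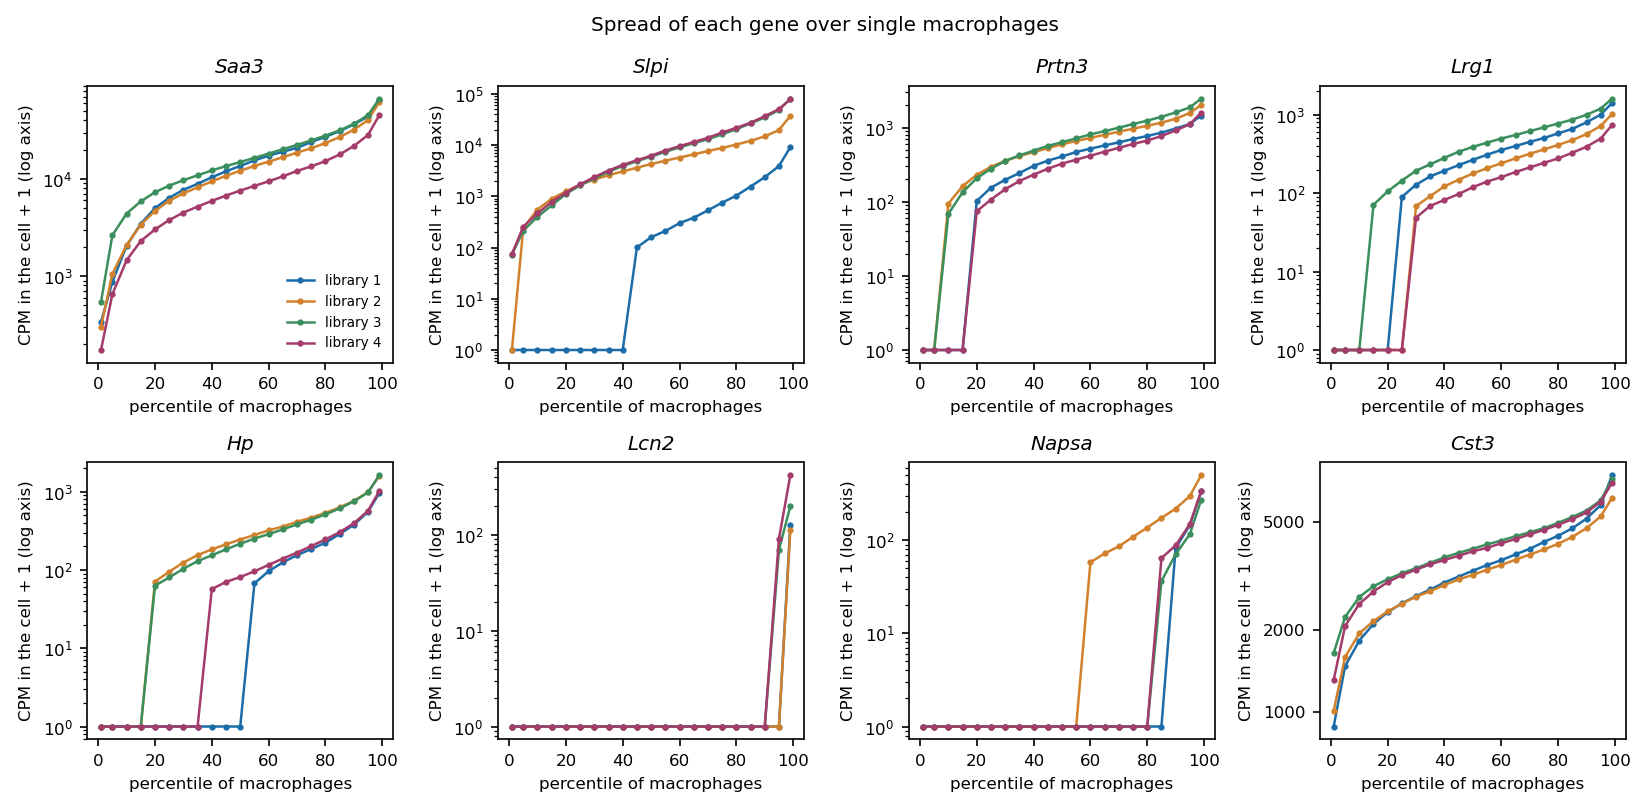
Level of each gene in single macrophages (CPM in the cell plus 1, log axis) at percentiles 1 to 99 of the cells of each library. Saa3 and Cst3 are above 0 in nearly all cells, the curve of Slpi in library 1 leaves 0 only past percentile 40, and Lcn2 leaves 0 only above percentile 90.

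Over single macrophages, Saa3 and Lrg1 were correlated in every library. Pearson's r of log-scaled levels was 0.33, 0.27, 0.39 and 0.15 in libraries 1 to 4, over 1538, 4218, 4334 and 5017 cells. These cells share a library and differ in depth, so r is a description only. Lrg1 with Prtn3 had 0.22, 0.30, 0.46 and 0.07, and Saa3 with Napsa was negative throughout, at -0.15, -0.08, -0.16 and -0.30. For Saa3 and Slpi, which both take many UMIs, r was 0.26 in library 1, 0.05 in library 2, -0.03 in library 3 and -0.01 in library 4. The correlation of Saa3 with the log UMI total was between -0.09 and 0.06, that of Cst3 between 0.03 and 0.28.

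**Figure D4:**
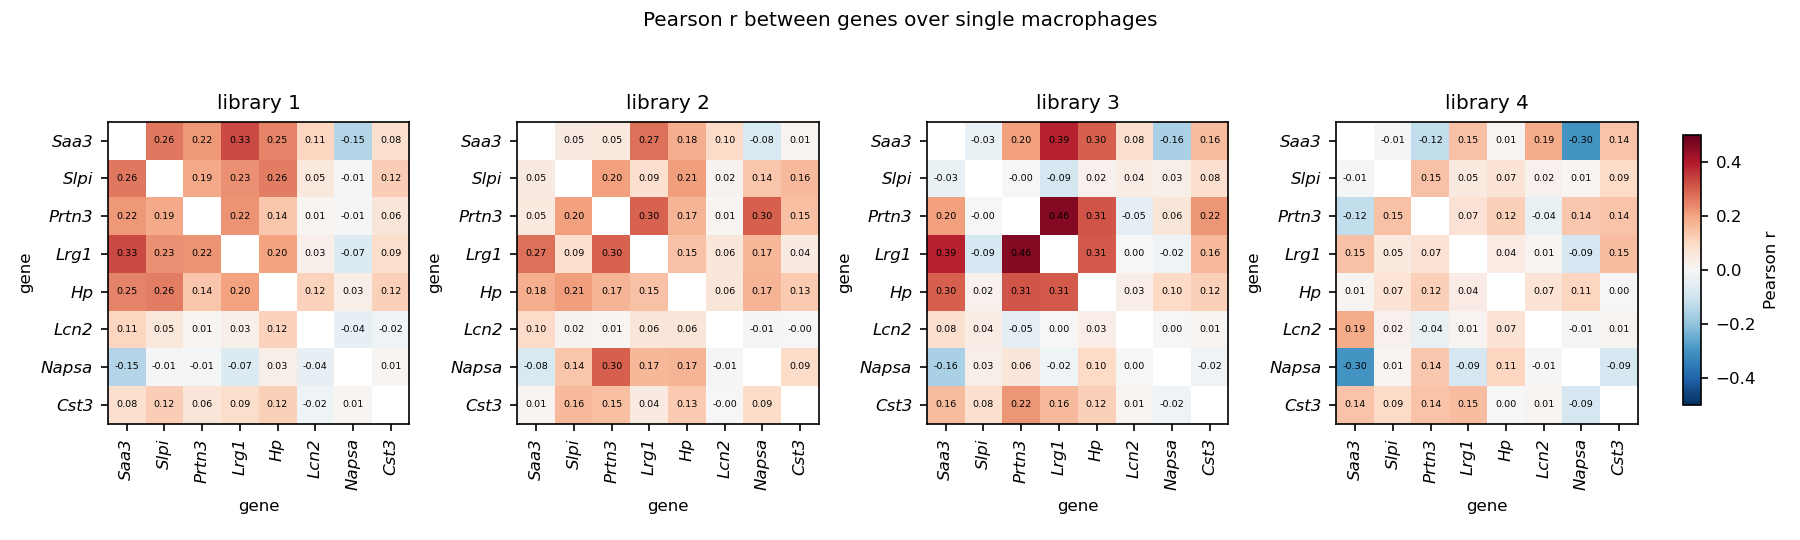
Pearson r between pairs of the 8 genes over single macrophages, 1 panel per library, with r printed in each square and red for positive and blue for negative values. Saa3 and Lrg1 are positive in all 4 panels and Saa3 and Napsa negative in all 4.

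Among 8357 genes with a UMI in at least 5% of macrophages of every library, the genes most like each member were named where they were among its 3 highest by median r and had r of at least 0.1 in every library. For Saa3 these were C4b, a complement component, with a median r of 0.31, and Lrg1, with 0.30. Lrg1 in turn had Saa3 and Prg4, the gene of the lubricating protein proteoglycan 4 (0.23). Slpi had Lyz2, the gene of lysozyme (0.28), Alox15, a lipoxygenase of large peritoneal macrophages (0.22), and Cd9, a tetraspanin (0.19). Prtn3 had the ribosomal protein genes Rpl10 (0.35), Rpl9 (0.34) and Fau (0.33). Hp had Cd14, the co-receptor for lipopolysaccharide (0.19). For Napsa these were Coro1a, an actin-binding protein of leukocytes (0.32), and H2-Eb1, an MHC class II chain (0.29). Cst3 had Lyz2 (0.40), Tyrobp, a signalling adaptor of myeloid receptors (0.40), and Fxyd5 (0.37). No gene met this for Lcn2, for which the highest median r was 0.10, with Saa3.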

How the data were processed

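The labels' protocols name the 10x 3' kit V3. The deposited values are whole-number counts of UMIs in a matrix of 31253 genes by 26811 barcodes, and the authors' file header gives Cell Ranger 5.0.1. Per the submitters' processing notes, CASAVA 1.8, Seurat and the build mm10 were also used. For counting settings and cell calling nothing is stated. Total UMIs were 40321459, 74067998, 73429015 and 78083803 in libraries 1 to 4. No doublet caller was run. The gates drop barcodes with lymphocyte receptor UMIs, and an alternative left out barcodes above the 95th percentile of UMIs.

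Counts were summed per cell set and library with Python 3.11.15, numpy 2.4.6, scipy 1.17.1 and pandas 2.3.3. Log2 ratios used a prior count of 0.5, with the gating genes left out of totals. With 1 sample per group and no map from suffix to sample, no p-value was computed, and cells are not replicates. Correlations used log1p of UMIs per 10000. The rule of size was run on simulated counts with sampling error only and with changes well above or well below its limit. Those counts lacked the spread between cells seen here. Nothing is therefore read from that run about genes near the limit. Members and gene lists were chosen with earlier results of these data known. Genes named are the members, up to 6 genes per list with 20 CPM in a library, and the most similar genes by correlation. Timp2 was named beyond that limit after its values were seen. The value of 1 further background gene is not reported here, and an alternative that used it, added after seeing the data, is counted among the alternatives but not described. Near-zero family and granule genes, background genes, chromosome neighbours and the genes past the rule in each split were chosen after their values were seen. Positions come from GENCODE M21 (GRCm38) and promoters from RefSeq (6 of 8 members matched; Hp and Napsa did not).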

Additional observations from a re-analysis of the deposited data

How the results depend on the processing

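Counts of members past the rules were recomputed under up to 17 alternatives each: other barcode filters, gates and thresholds, thinning, other minimum levels and weights, centring, prior counts, T cells in place of B cells, and leaving out each library. The macrophage against B cell count of 7 was 8 with a minimum of 5 CPM, 6 against T cells and 7 in the other 13 of 15 alternatives (7 to 7 when libraries were left out), the Folr2 count was 0 in all 17 (0 to 0), and the number of members spanning 2-fold was 4 or 5 in all 11 (4 to 5 when libraries were left out). The Timd4 count of 1 became 0 with 1 UMI or more against 0 and 0 without cells with a dendritic cell gene, where Napsa did not pass, and was 1 to 1 when libraries were left out. The Ccr2 count of 0 became 1 with a minimum of 5 CPM, where Lcn2 was lower, and was 0 to 2 when libraries were left out, 2 without library 2. Values of single members moved more often. Their median ratios left the median limits of their main intervals in 54 cases and stayed inside in 82 for the Ccr2 split. These counts were 49 and 87 for the Folr2 split and 25 and 111 for the Timd4 split. Against B cells they were 23 and 96, with 1 more reversed. Spans left theirs in 33 cases and stayed in 55. Shares of macrophages with a UMI did so in 59 and stayed in 37, with other thinning or none. The median log2 ratio of Napsa reversed from -5.08 against B cells to 0.35 against T cells. Over their alternatives the median ratios of Saa3 and Slpi in the Ccr2 split ranged from -1.98 to -1.09 and from -1.14 to -0.73. Of the 17 alternatives, 10 kept the sign of Prtn3 and 15 that of Cst3 in that split, and 13 that of Lcn2 in the Folr2 split. The main medians were -0.03, -0.07 and -0.12. Depth limits Lcn2 most, with 79 UMIs in macrophages of library 1. No paired analysis was possible because each group has 1 sample and barcode suffixes are not tied to samples.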

Other observations

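Macrophages with at least 3 Lcn2 UMIs, a limit set after the values were seen, were few but held most of the gene's UMIs. They numbered 6, 30, 56 and 126 in libraries 1 to 4, which is 0.39, 0.71, 1.29 and 2.51% of macrophages, and held 62.0, 60.9, 52.8 and 73.6% of the Lcn2 UMIs. Saa3, the serum amyloid A gene, was at 43901, 30771, 23507 and 20054 CPM in these cells, against 16329, 14983, 18282 and 9622 CPM in macrophages without a Lcn2 UMI. Hp, the haptoglobin gene, was at 634, 529, 365 and 234 CPM against 122, 334, 313 and 144 CPM. Saa3 and Hp were higher in Lcn2-rich cells of all 4 libraries, as was Slpi (2212, 10682, 16404 and 14915 CPM against 926, 7208, 12847 and 13764), while Prtn3 was lower in all 4, at 413, 557, 538 and 320 CPM against 481, 665, 764 and 402 CPM. The Lcn2-rich cells were deeper, at medians of 10702.5, 16716.5, 16742.5 and 15582.5 UMIs against 8103, 12431.5, 13847 and 12758, and the part of depth in these differences was not tested.

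Of the genes next to the members on the chromosome, some had almost no UMIs in macrophages. Saa4 and Saa1 lie 8377 and 20882 bases from Saa3 and had at most 0.62 CPM, while Saal1, 1308 bases away on the other side, had 12.8, 12.6, 9.39 and 8.26 CPM in macrophages and 13.6, 11.6, 16.5 and 10.2 CPM in B cells. Cfd, the gene of complement factor D, lies 7679 bases from Prtn3 beyond Elane and had 0, 0, 0.048 and 0.030 CPM. On the other side of Prtn3, Plppr3 had 16.2, 9.70, 5.88 and 4.999 CPM, against 1.04, 0.21, 1.65 and 0.51 CPM in B cells. Sema6b, 1139 bases from Lrg1, had 12.4, 10.4, 12.2 and 5.13 CPM in macrophages and at most 1.65 CPM in B cells, and library 4 was lowest for both genes. Ptbp1, beyond Plppr3, had 89.3, 64.4, 53.9 and 50.3 CPM. The neighbours were taken by position after the member values were known.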
